A study of Mus musculus with 18 samples.

Results

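The 4 transcripts of the aryl hydrocarbon receptor (AHR) pathway, Ahr, Ahrr, Cyp1b1 and Tiparp, were examined in eosinophils cultured with apoptotic cells (ACs). They are 4 of the 54446 genes in the deposited table and were taken from it by symbol, after matching each gene identifier without its version. Cyp1b1 was chosen by its normalized counts, having risen with E. coli in these same libraries. Its values in every contrast that uses the E. coli + ACs libraries or the ACs libraries they were set against are therefore given as a description with no test.

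AHR is a transcription factor of the bHLH-PAS family that is activated by small ligands, among them dioxins, dietary and microbial indoles and products of tryptophan breakdown. Without ligand it is held in the cytoplasm by HSP90 chaperones, and with ligand it enters the nucleus, pairs with ARNT and binds DNA elements with the core GCGTG. The cytochrome P450 genes Cyp1a1 and Cyp1b1 are well known targets, whereas the targets Ahrr and Tiparp encode proteins that restrain the receptor.

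Peritoneal eosinophils were taken from Il5Tg mice, which overproduce IL-5 from an Il5 transgene, and GEO's labels give the strain as C57BL/6. All 6 groups held ACs, prepared by treating wild-type thymocytes with dexamethasone, at 5 ACs per eosinophil for 18 h. The Type 1 experiment had 4 groups, namely ACs with no stimulus, E. coli + ACs, IFN-γ + ACs, and IFN-γ + E. coli + ACs, in which IFN-γ was followed by E. coli. The IL-4 experiment had ACs with no stimulus and IL-4 + ACs. Each group had 3 libraries, described in the study as biological replicates. After culture the eosinophils were selected once more, on beads against Siglec-F, before RNA extraction. Eosinophils without ACs were not analysed here.

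CEL-Seq2, a method that reads transcripts from their 3' end, was used, and levels are given as the authors' normalized counts. Reads on genes numbered 2216917 to 5078760 for each library of the Type 1 experiment. In the IL-4 experiment 2 libraries were much shallower, with 849705 reads in IL-4 + ACs replicate 3 and 779421 in ACs replicate 3. In these, 3 reads, taken as the lowest value told from 0, stand for normalized counts of 15.4 and 16.1. All 8 eosinophil markers were detected in every group, with a summed level of 15213 to 45802, although Epx, the eosinophil peroxidase gene, was too low to be tested in the Type 1 experiment. All 10 macrophage markers were also detected in every group, summing to 10093 to 39942, so the libraries were not free of macrophage transcripts. The thymocyte markers, which the ACs would carry, summed to 45.5 to 179. Genes known to respond to each stimulus did so, with log2 fold changes of 3.06 for Il1b in E. coli + ACs, 7.60 for Cxcl9 in IFN-γ + ACs and 2.57 for Chil3 in IL-4 + ACs.

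Ahr, the receptor gene, lies on GRCm38 chr12:35497974-35535038 on the minus strand. Ahrr, which encodes a repressor that competes with AHR for ARNT, lies on chr13:74211118-74292331, minus strand. Cyp1b1, a monooxygenase of tissues outside the liver, lies on chr17:79701537-79715061, minus strand. Tiparp, an ADP-ribosyltransferase that modifies AHR, lies on chr3:65528410-65555518, plus strand. The lincRNA Gm48236 overlaps Ahr and the pseudogene 4931440P22Rik overlaps Tiparp, both on the opposite strand, with a highest normalized count of 1.74 and 29.1 in any library.

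The promoter bases of the 3 members that matched RefSeq's promoter table (build GRCm38.p6) are shown because the AHR core motif was searched in them. Ahr had no entry. Each runs 5' to 3' on the gene's strand and ends just before the annotated start. Capitals mark GCGTG, or CACGC where the motif is on the other strand. The windows are chr13:74292332-74292581 for Ahrr, chr17:79715062-79715311 for Cyp1b1 and chr3:65528197-65528409 for Tiparp, of which the last was shortened to 213 bases because the GENCODE gene starts 37 bases farther upstream.
Ahrr: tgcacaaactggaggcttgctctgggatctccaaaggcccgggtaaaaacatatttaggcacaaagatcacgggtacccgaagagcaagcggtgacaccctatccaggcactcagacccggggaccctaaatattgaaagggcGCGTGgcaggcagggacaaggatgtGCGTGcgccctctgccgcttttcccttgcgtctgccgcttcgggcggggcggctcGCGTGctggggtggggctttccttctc
Cyp1b1: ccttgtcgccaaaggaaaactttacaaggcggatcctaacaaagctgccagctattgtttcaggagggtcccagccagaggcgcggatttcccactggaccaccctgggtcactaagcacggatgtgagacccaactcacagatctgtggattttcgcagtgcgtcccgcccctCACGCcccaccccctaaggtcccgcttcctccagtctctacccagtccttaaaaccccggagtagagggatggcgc
Tiparp: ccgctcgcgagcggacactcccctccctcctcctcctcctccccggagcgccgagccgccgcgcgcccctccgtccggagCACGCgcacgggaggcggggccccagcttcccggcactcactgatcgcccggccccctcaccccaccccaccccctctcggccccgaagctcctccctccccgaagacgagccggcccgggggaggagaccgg

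The 250 bases upstream of Ahrr held 3 copies of the motif, all on the gene's strand, with first bases 107, 82 and 27 bases before the start. Cyp1b1 and Tiparp held 1 copy each, on the opposite strand, beginning 76 and 170 bases before RefSeq's start, which for Tiparp lies 37 bases past the end of the sequence shown. Of 32851 promoters of the same length, 28.2% held at least 1 copy on either strand and 2.77% at least 3. A match describes letters in the window and is not a measured binding site.

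The receptor transcript itself was higher after E. coli and after IFN-γ, and its mean after both together was below that after either one. Ahr stood at 132, 152 and 145 normalized counts in the 3 ACs libraries, and at 315, 284 and 274 in E. coli + ACs. It was 278, 229 and 238 in IFN-γ + ACs, and 234, 230 and 236 in IFN-γ + E. coli + ACs. The lowest stimulated library lay well above the highest ACs library. Of all genes tested, 19.9%, 22.6% and 23.9% were likewise higher without overlap with E. coli, IFN-γ and both.

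Ahr rose 2.04-fold by group means in E. coli + ACs, from 143 ± 10.3 to 291 ± 21.1 (SD, n = 3), with a log2 fold change of 1.02 ± 0.14 (SE, limma, adjusted p = 4.5e-05). There 5.05% of all genes tested were past the threshold upwards, meaning that the change was at least 1.5-fold with an adjusted p under 0.05. In IFN-γ + ACs it rose 1.74-fold to 249 ± 26.2 (log2 0.79 ± 0.14, limma, adjusted p = 0.000273), where 11.4% of genes passed upwards. In IFN-γ + E. coli + ACs it rose 1.63-fold to 233 ± 3.19 (log2 0.70 ± 0.14, limma, adjusted p = 0.000545), where 14.7% passed upwards. These 3 comparisons share the same ACs libraries. With scaling to a common upper quartile, with which the median of all genes stood at -0.26 and -0.35 on the log2 scale, the Ahr changes in the IFN-γ groups were 0.53 and 0.40, both under 1.5-fold.

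The response of Ahr to E. coli differed with and without IFN-γ. With IFN-γ present, E. coli moved it by -0.09 on the log2 scale (95% interval -0.38 to 0.21, limma, adjusted p = 0.710), against 1.02 without IFN-γ. The difference between these effects was -1.11 (95% interval -1.52 to -0.69, limma, adjusted p = 0.00178), and 4.28% of genes tested passed in that direction and 3.16% in the other. Against E. coli + ACs, the combination was lower by 0.32 on the log2 scale in libraries that did not overlap, and this missed the threshold (limma, adjusted p = 0.106), where 19.4% of genes lay lower without overlap.

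**Figure D1:**
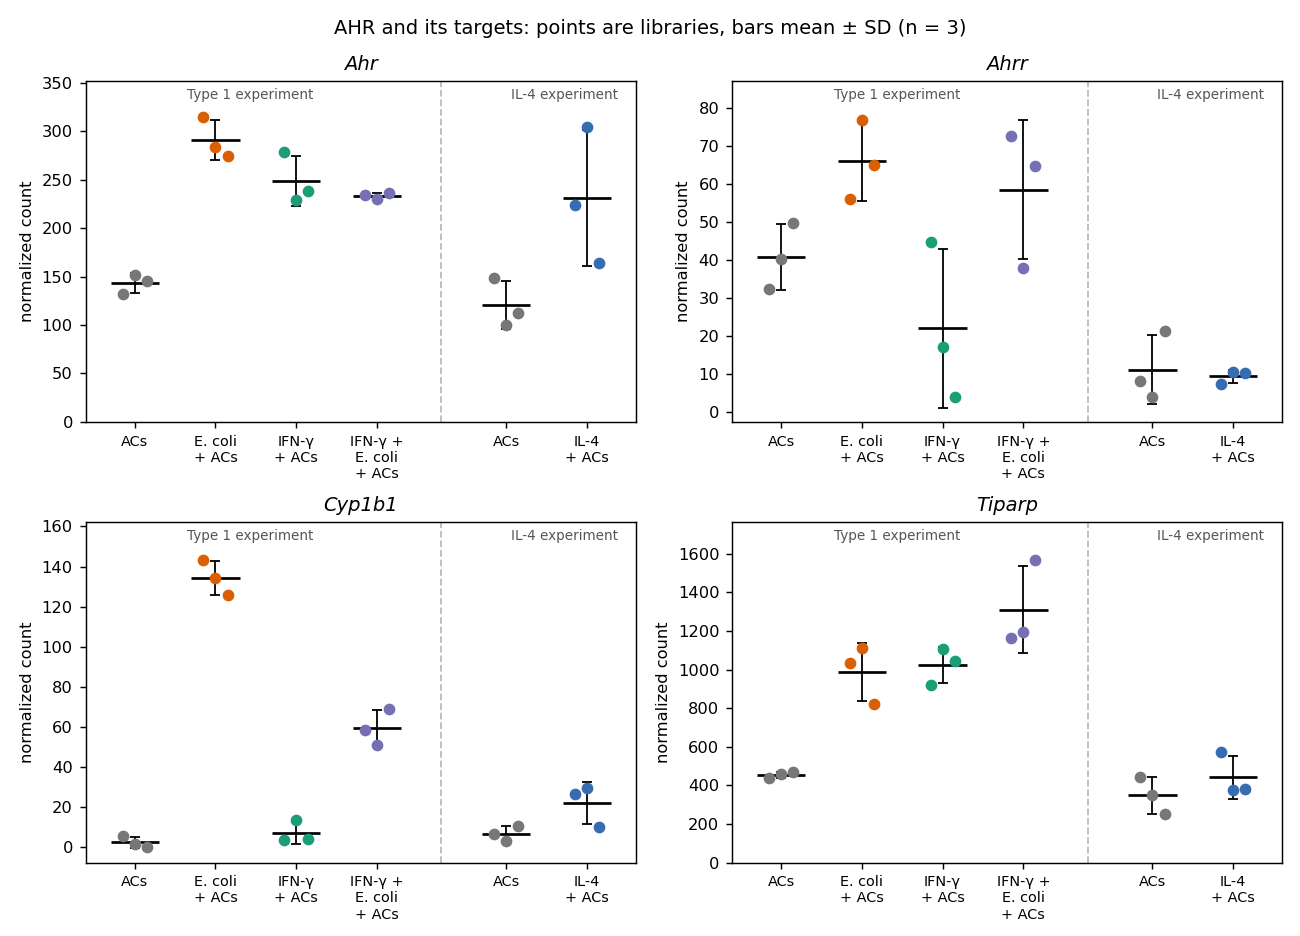
Normalized counts (vertical axis, linear) of the receptor Ahr, the repressor Ahrr and the targets Cyp1b1 and Tiparp in the 6 groups (horizontal axis), with the Type 1 experiment left of the dashed line and the IL-4 experiment right of it. Points are libraries, and bars give the mean ± SD of 3. Cyp1b1 stands at 126 to 143 in E. coli + ACs and at 51.3 to 69.0 in IFN-γ + E. coli + ACs, above every other library, whereas Tiparp is above its ACs libraries in all 3 stimulated groups of the Type 1 experiment.

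Ahrr, the repressor, followed another course, being lowest on average with IFN-γ alone among the Type 1 groups. Its libraries held 32.5, 40.4 and 49.8 normalized counts in ACs and 56.1, 76.9 and 65.1 in E. coli + ACs. In IFN-γ + ACs they held 44.9, 17.2 and 4.10, the last being 2 reads, and in IFN-γ + E. coli + ACs 72.7, 37.9 and 64.9. The E. coli + ACs libraries lay above the ACs libraries with no overlap, whereas the IFN-γ + ACs libraries were widely spread.

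Against ACs, the Ahrr log2 fold changes were 0.69 with E. coli (95% interval -0.39 to 1.76, limma, adjusted p = 0.448), -1.35 with IFN-γ (-2.43 to -0.27, adjusted p = 0.0585) and 0.47 with both (-0.60 to 1.55, adjusted p = 0.494). None passed, although 19.9% of genes lay higher without overlap in E. coli + ACs, as Ahrr did. With IFN-γ present, adding E. coli raised Ahrr 2.65-fold by group means (log2 1.82 ± 0.51, limma, adjusted p = 0.0168), where 5.96% of genes passed upwards. The libraries of those groups overlapped, and the call was lost without IFN-γ + ACs replicate 3 (log2 0.99, limma, adjusted p = 0.0667) or without IFN-γ + E. coli + ACs replicate 1 (1.64, limma, adjusted p = 0.0688). The effect of E. coli on Ahrr with IFN-γ minus that without was 1.14 on the log2 scale, not past the threshold (limma, adjusted p = 0.383).

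Cyp1b1 was close to absent in ACs and abundant after E. coli. The ACs libraries held 5.69, 1.88 and 0 normalized counts, from 7, 2 and 0 reads, and the E. coli + ACs libraries 143, 134 and 126. Since this rise chose the gene, the 53.2-fold ratio of group means and the log2 fold change of 5.66 are a description, and with a pseudocount of 5 in place of 1 the log2 value was 4.28. In that contrast 10.3% of genes passed in either direction, and 0.00984% of genes tested had a higher change.

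The E. coli effect on Cyp1b1 was also fitted in the libraries with IFN-γ. Its choice is recorded only as a rise with E. coli, made with earlier results of these data known. The spread in this fit also came from the E. coli + ACs and ACs libraries, so the p-value is not independent of the choice. IFN-γ + ACs libraries held 3.96, 13.8 and 4.10 normalized counts, and IFN-γ + E. coli + ACs libraries 58.4, 51.3 and 69.0, well apart. Cyp1b1 rose 8.19-fold by group means there, from 7.27 ± 5.61 to 59.6 ± 8.90 (log2 3.06 ± 0.55, limma, adjusted p = 0.000596), against 5.96% of genes passing upwards and 14.2% higher without overlap. Cyp1b1 passed the filter on low values (a mean of 10 over the libraries fitted) through the E. coli groups. With every gene above 0 tested, the adjusted p was 0.00141 (limma). The filter cannot alter the log2 fold change of a gene, so its value of 3.06 there is no further support. Against ACs its log2 fold change was 4.49 with both stimuli and 1.43 with IFN-γ alone, where libraries overlapped. These 2 values rest on the ACs libraries that its choice used and have no test.

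The Cyp1b1 level with both stimuli was 0.443 times that with E. coli alone, with no overlap between 51.3 to 69.0 and 126 to 143, and the effect of E. coli was 2.59 lower on the log2 scale with IFN-γ than without. Both values use the libraries that chose the gene and have no test. The second fell to 1.80 lower with a pseudocount of 5.

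Tiparp rose in all 3 stimulated groups of the Type 1 experiment and was highest with both stimuli. It stood at 437, 458 and 469 normalized counts in ACs, 1034, 1112 and 821 in E. coli + ACs, 922, 1106 and 1042 in IFN-γ + ACs, and 1165, 1195 and 1569 in IFN-γ + E. coli + ACs. Each stimulated library was above each ACs library, as for 19.9%, 22.6% and 23.9% of genes in these comparisons. The fold of group means was 2.18 with E. coli (log2 1.11 ± 0.14, limma, adjusted p = 1.49e-05), 2.25 with IFN-γ (1.17 ± 0.14, adjusted p = 2.83e-06) and 2.88 with both (1.51 ± 0.14, adjusted p = 6.18e-08).

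The combination exceeded either stimulus by less than 1.5-fold for Tiparp. It was 0.35 higher on the log2 scale than IFN-γ + ACs (limma, adjusted p = 0.0867) and 0.40 higher than E. coli + ACs (limma, adjusted p = 0.0386), in libraries that did not overlap in either contrast, as for 14.2% and 19.9% of genes in the same direction. The effect of E. coli on Tiparp was 0.76 lower on the log2 scale with IFN-γ than without (95% interval -1.17 to -0.35, limma, adjusted p = 0.0210). This call was lost when E. coli + ACs replicate 1 or 2, IFN-γ + ACs replicate 2 or IFN-γ + E. coli + ACs replicate 1 was left out, at differences of -0.72, -0.67, -0.70 and -0.69.

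**Figure D2:**
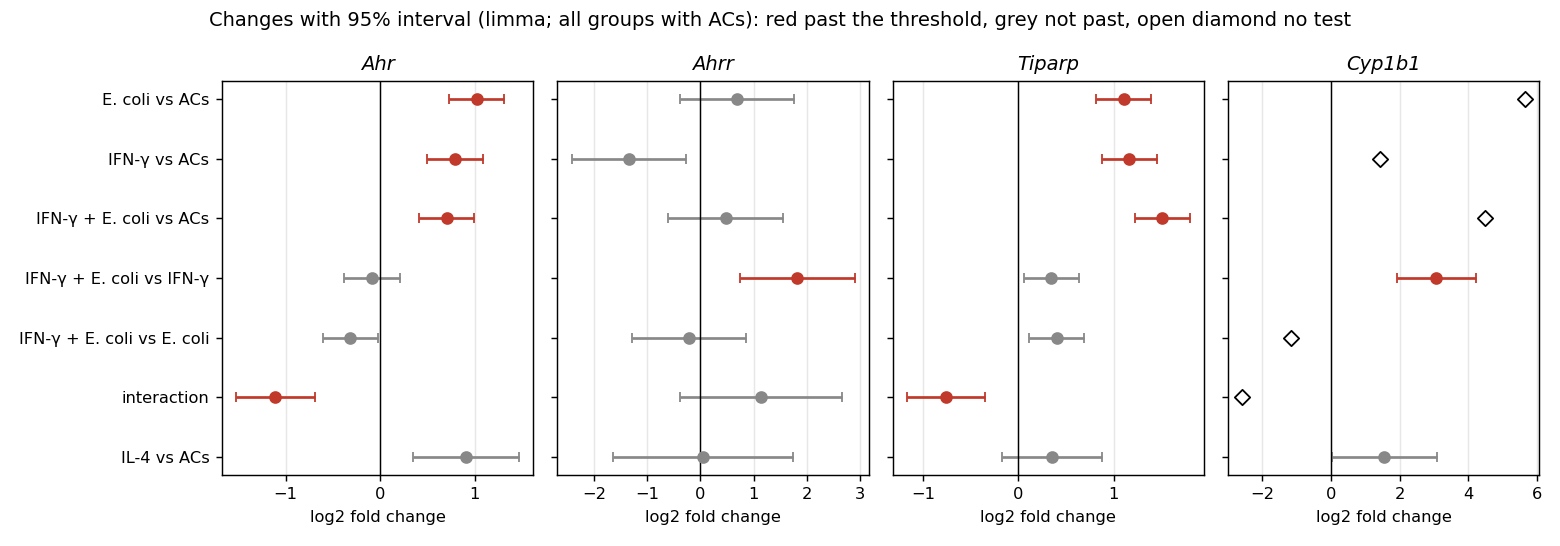
Log2 fold changes (horizontal axis, with a scale for each gene) of the 4 transcripts in 7 contrasts (vertical axis), where bars give limma's 95% interval. The interaction is the effect of E. coli with IFN-γ minus that without, red marks changes past the threshold, grey those not past it and open diamonds Cyp1b1 values with no test. Ahr and Tiparp are red in the 3 contrasts of a Type 1 stimulus against ACs and in the interaction, at -1.11 and -0.76, and no transcript is red for IL-4.

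Markers of macrophages moved with the stimuli. Their summed level was 18126 to 23296 in ACs, 10093 to 12270 in E. coli + ACs, 27428 to 37044 in IFN-γ + ACs and 11454 to 12416 in IFN-γ + E. coli + ACs. Of the 10 markers, 6 fell and 0 rose with E. coli, 3 rose and 1 fell with IFN-γ, and 1 rose and 6 fell with both. Over all genes tested, 5.05% rose and 5.25% fell with E. coli, 11.4% and 9.96% with IFN-γ, and 14.7% and 17.2% with both. Eosinophil markers summed to 24293 to 25684 in ACs, 26602 to 28797 in E. coli + ACs, 15213 to 17619 in IFN-γ + ACs and 22150 to 26721 with both. Of the 7 eosinophil markers tested, 1 rose and 1 fell with E. coli, 0 rose and 4 fell with IFN-γ, and 0 rose and 1 fell with both. In IFN-γ + ACs each macrophage sum lay above each eosinophil sum, although the lists hold different genes. Thymocyte markers summed to 91.1 to 136 in ACs, 128 to 179 in E. coli + ACs, 55.4 to 110 in IFN-γ + ACs and 45.5 to 115 with both. Neutrophil markers summed to 1558 to 1844, 1878 to 2293, 1876 to 2374 and 987 to 1253 in the same order. Of the 3 neutrophil markers tested, 1 rose and 0 fell with E. coli and likewise with IFN-γ. With both stimuli 2 rose and 1 fell, so the lower sum there did not hold for each marker. Mast cell markers summed to at most 56.2, and Cpa3, the 1 of them tested, rose with IFN-γ (log2 2.75, limma, adjusted p = 0.00617) and with both (3.03, adjusted p = 0.00202). Stromal and mesothelial markers, cells in which Cyp1b1 is also expressed, summed to 62.9 to 88.6 in ACs, 48.2 to 74.5 in E. coli + ACs, 28.7 to 51.6 in IFN-γ + ACs and 5.52 to 12.2 with both. The part of these shifts in the changes of the 4 transcripts was not tested, and in bulk samples fewer cells of a type and less RNA per cell cannot be told apart.

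With IL-4 the macrophage sum was 22650 to 37650, against 27552 to 39942 in its ACs libraries. IL-4 moved none of the 4 transcripts past the threshold, in a comparison where 1.09% of genes passed in either direction. Ahr held 148, 100 and 113 normalized counts in the ACs libraries of that experiment and 224, 305 and 164 in IL-4 + ACs, with no overlap, as for 8.45% of genes in that direction. Its log2 fold change was 0.91 (95% interval 0.34 to 1.47, limma, adjusted p = 0.215). Without the shallow replicate 3 of both groups, an alternative chosen after seeing the data, it was 1.09 and past the threshold (limma, adjusted p = 0.00661), as it also was at 1.00 with edgeR (adjusted p = 0.0384) and 0.97 with DESeq2 (adjusted p = 0.0234).

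Cyp1b1 held 6.77, 3.11 and 10.7 normalized counts in the ACs libraries of the IL-4 experiment and 26.7, 29.5 and 10.3 in IL-4 + ACs, so that only the shallow IL-4 + ACs replicate 3, at 2 reads, fell within the ACs range. The log2 fold change was 1.56 (95% interval 0.02 to 3.09, limma, adjusted p = 0.511), and 2.36 without both replicate 3 libraries (limma, adjusted p = 0.00841). Tiparp was 444, 348 and 252 in ACs and 571, 376 and 380 in IL-4 + ACs (log2 0.35, limma, adjusted p = 0.674). Ahrr was 8.27, 3.89 and 21.5 in ACs and 7.53, 10.5 and 10.3 in IL-4 + ACs, a log2 fold change of 0.04 with an interval of -1.65 to 1.73.

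In order of mean level over the 6 groups, Ahr was highest in E. coli + ACs, followed by IFN-γ + ACs, IFN-γ + E. coli + ACs and IL-4 + ACs, each overlapping its neighbour. A gap separated these from both ACs groups. Cyp1b1 ran from E. coli + ACs to IFN-γ + E. coli + ACs to IL-4 + ACs, with a gap after each of the first 2, whereas IL-4 + ACs and the 3 groups that followed overlapped their neighbours. Ahrr had no gap between neighbours, although its ACs libraries ranged from 32.5 to 49.8 in the Type 1 experiment and from 3.89 to 21.5 in the IL-4 experiment. Since the experiment and the group cannot be told apart there, no test was made across experiments.

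**Figure D3:**
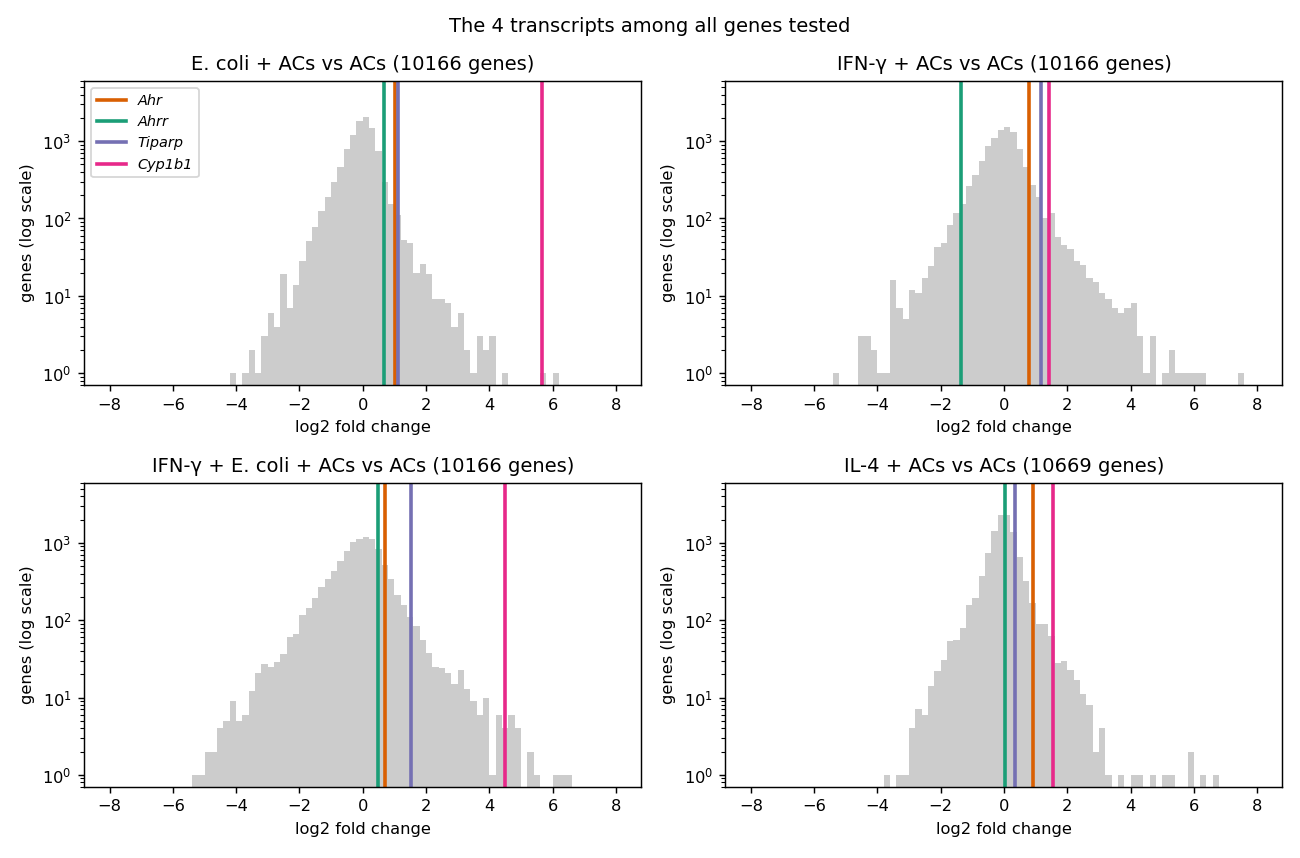
Number of genes tested (vertical axis, log scale) by log2 fold change (horizontal axis, bins of 0.2) in 4 comparisons with ACs, with a coloured line at each of the 4 transcripts. Cyp1b1 lies at 5.66 with E. coli, which chose it, at 4.49 with both stimuli, at 1.43 with IFN-γ and at 1.56 with IL-4, and Ahrr lies below 0 with IFN-γ, at -1.35.

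Among partners and chaperones of the receptor, 5 of 6 listed genes were tested. With E. coli 1 rose, the co-chaperone Ptges3 (log2 0.76, limma, adjusted p = 7.28e-05), and 0 fell. With IFN-γ 4 rose, among them Arnt, the partner that AHR needs to bind DNA (0.88, adjusted p = 0.0113), and the HSP90 genes Hsp90aa1 (1.05, adjusted p = 1.69e-06) and Hsp90ab1 (0.82, adjusted p = 6.91e-05). The fourth was Ptges3 at 1.02. The number was 4 again with both stimuli and 0 with IL-4. The shares of all genes that passed upwards were 5.05%, 11.4% and 14.7%, and 1.09% passed either way with IL-4. The list's median change was 0.42 with E. coli, 0.88 with IFN-γ and 0.75 with both, against 0.00, 0.00 and -0.05 over all genes tested. Arnt and Hsp90ab1 did not pass with upper quartile scaling in either IFN-γ group, at 0.61 and 0.55 with IFN-γ and at 0.45 and 0.42 with both. The Arnt call was also lost without ACs replicate 3 in either group, without IFN-γ + ACs replicate 2 with IFN-γ (0.69), and with both stimuli without ACs replicate 1 (0.69) or IFN-γ + E. coli + ACs replicate 2 (0.50). In 1 fit of all 18 libraries both Arnt calls were lost (limma, adjusted p = 0.0699 and 0.0983).

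Other genes of the AHR battery, which are induced by the receptor in some tissues and often by other factors too, rose more often than they fell with each Type 1 stimulus. Of 18 listed, 9 were tested, of which 6 rose and 1 fell with E. coli, 4 rose and 1 fell with IFN-γ, and 5 rose and 1 fell with both. Over all genes the shares past the threshold were 5.05%, 11.4% and 14.7% upwards and 5.25%, 9.96% and 17.2% downwards. The median change of the 9 was 1.53 with E. coli, 0.25 with IFN-γ and 0.83 with both. This list, like the partners above and the lists below, was chosen with earlier results of these data known. Its counts beside the shares of all genes are therefore a description.

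Cyp1a1, the textbook AHR target (chr9:57687928-57703824, plus strand), shared with Cyp1b1 a level that was highest in E. coli + ACs. It held 7.32, 5.63 and 7.34 normalized counts in ACs, 39.4, 53.1 and 42.2 in E. coli + ACs, 2.64, 3.44 and 4.10 in IFN-γ + ACs, and 11.4, 8.55 and 20.7 with both. All E. coli + ACs libraries were above all others of the Type 1 experiment. Cyp1a1 rose with E. coli (log2 2.56 ± 0.46, limma, adjusted p = 0.00071). It was higher with both stimuli than with IFN-γ (1.65 ± 0.46, limma, adjusted p = 0.0150), lower than with E. coli alone (-1.73 ± 0.46, limma, adjusted p = 0.0093, where 9.57% of genes passed downwards and 9.79% upwards), and 0.83 above ACs without passing (adjusted p = 0.164). The difference between its E. coli effects with and without IFN-γ, -0.91, was not past the threshold (limma, adjusted p = 0.447). The first of these calls was lost without IFN-γ + E. coli + ACs replicate 3 (Cyp1a1 1.32, limma, adjusted p = 0.0770) and the second without E. coli + ACs replicate 2 (-1.61, limma, adjusted p = 0.0556). In 1 fit of all 18 libraries both were lost (limma, adjusted p = 0.127 and 0.0921), as was the first with every gene above 0 tested (0.0520). In the IL-4 experiment its mean was too low to be tested, with 11.6, 7.38 and 0 in IL-4 + ACs and 9.02, 4.67 and 16.1 in ACs.

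Nqo1, a quinone reductase that NRF2 also controls, rose from 98.1 ± 15.8 normalized counts in ACs to 354 ± 33.3 in E. coli + ACs, 219 ± 37.9 in IFN-γ + ACs and 430 ± 90.5 with both (SD, n = 3). The log2 fold changes were 1.85, 1.15 and 2.11. Ptgs2, the inducible cyclooxygenase, rose by 1.93, 2.86 and 4.70, and Hes1, a repressor best known as a Notch target, by 1.83, 1.85 and 2.82. Serpinb2, a plasminogen activator inhibitor, rose with E. coli (1.53) and with both (1.64), and stood at 0.25 with IFN-γ. Socs2, a suppressor of cytokine signalling, rose with E. coli (0.85), and stood at -0.19 with IFN-γ and -0.15 with both. Selenbp1, a selenium-binding protein, fell in all 3 groups, by 1.80, 0.96 and 0.74. The limma adjusted p for these changes ranged from 7.7e-11 for Ptgs2 with both to 0.0153 for Selenbp1 with both, a call lost without ACs replicate 2 or IFN-γ + E. coli + ACs replicate 1. Gstm1, whose reads may be shared with near-identical family members, rose by 1.31 with IFN-γ and 0.81 with both, the latter not past the threshold with upper quartile scaling (0.50, limma, adjusted p = 0.0614).

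With IL-4, 8 genes of the battery were tested, and Ptgs2 (log2 1.5, limma, adjusted p = 0.0147) and Socs2 (1.04, adjusted p = 0.0203) rose while Gstm1 fell by 1.67 (adjusted p = 0.00597). Of all genes, 1.09% passed either way. All 3 calls were lost with upper quartile scaling (Gstm1 at adjusted p = 0.423 with limma), and that of Socs2 with the replicate block. The Ptgs2 and Socs2 calls were lost when IL-4 + ACs replicate 1 or 2 or ACs replicate 2 was left out, and that of Ptgs2 also without ACs replicate 1. The list's median change was 0.19.

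**Figure D4:**
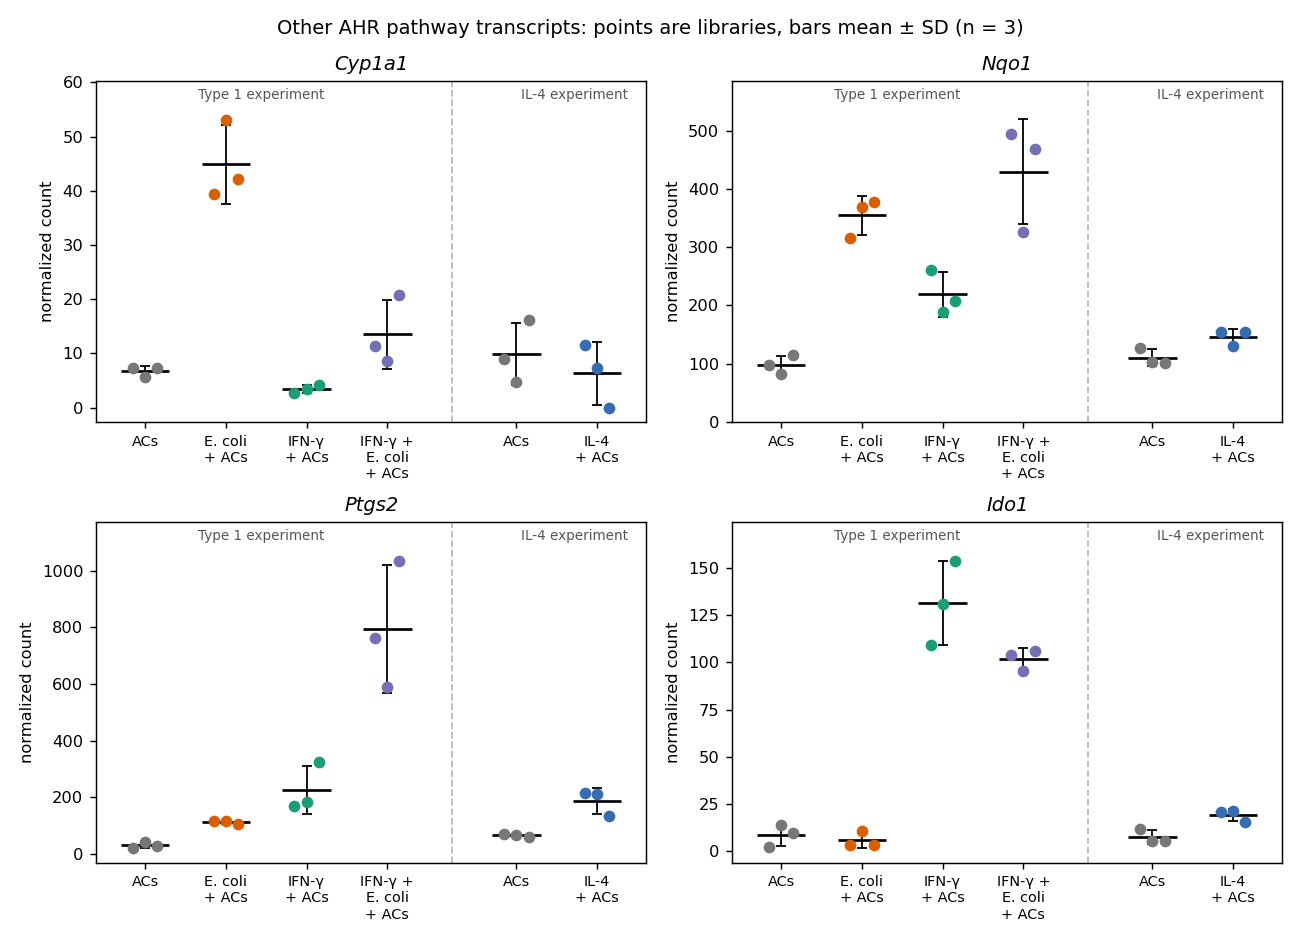
Normalized counts (vertical axis, linear) of 4 listed genes of the AHR pathway in the 6 groups (horizontal axis), drawn as in the plot of the members' levels, with points for libraries and bars for the mean ± SD of 3. Cyp1a1 is highest in E. coli + ACs at 39.4 to 53.1, Ptgs2 is highest with both stimuli at 589 to 1036, and Ido1 is high in both IFN-γ groups at 95.3 to 154.

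Of 12 genes that supply AHR ligands from tryptophan or carry tryptophan, 4 were tested in the Type 1 experiment. Of these, 1 rose with E. coli, 2 with IFN-γ and 2 with both, and 0 fell. Over all genes tested, 5.05%, 11.4% and 14.7% passed upwards. Ido1, which opens the kynurenine pathway, held 2.44, 14.1 and 9.79 normalized counts in ACs, 3.35, 10.6 and 3.52 in E. coli + ACs, 109, 131 and 154 in IFN-γ + ACs, and 104, 95.3 and 106 with both. It rose with IFN-γ (log2 3.99 ± 0.46, limma, adjusted p = 2.28e-06) and with both (3.64 ± 0.46, adjusted p = 4.67e-06), and stood at -0.43 with E. coli. The transporter Slc7a8 rose in the 3 stimulated groups, by 1.03, 0.92 and 1.5. Il4i1, an amino acid oxidase that makes AHR ligands, was too low to be tested there, with 2.44, 2.82 and 4.89 in ACs, 13.4, 8.99 and 14.1 in E. coli + ACs, 3.96, 3.44 and 0 in IFN-γ + ACs, and 5.70, 2.44 and 5.52 with both. Tdo2, also too low to be tested, had group means of 25.2, 5.67, 5.99 and 0.48 in ACs, E. coli + ACs, IFN-γ + ACs and both. In the same order and also untested, Haao had 21.8, 9.88, 3.95 and 1.33, and Kyat1 19.5, 6.17, 9.48 and 1.36. Ido2, untested as well, was higher in the IFN-γ groups, at 1.52, 1.38, 14.7 and 21.4. With IL-4, where 1.09% of all genes passed in either direction, 0 of 6 tested genes passed. Among them Il4i1 stood at 3.76, 10.1 and 5.36 in ACs and 28.4, 31.1 and 82.2 in IL-4 + ACs (log2 2.62, limma, adjusted p = 0.0899).

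Of 9 bHLH-PAS relatives and coactivators, 7 were tested. With E. coli 1 rose and 1 fell, with IFN-γ 1 rose and 0 fell, and with both 1 rose and 1 fell. Over all genes tested, 5.05%, 11.4% and 14.7% passed upwards and 5.25%, 9.96% and 17.2% downwards. Hif1a, the oxygen-regulated factor that also pairs with ARNT, rose with E. coli (log2 0.87), IFN-γ (0.61) and both (1.48). Epas1, its relative HIF-2α, fell by 1.67 with E. coli and fell by 3.24 with both, and stood at -0.59 with IFN-γ. The limma adjusted p of these called changes ranged from 9.01e-08 to 0.00251, and the Hif1a rise with IFN-γ was under 1.5-fold with upper quartile scaling, at 0.35, and with ACs replicate 1, ACs replicate 3 or IFN-γ + ACs replicate 3 left out, at 0.50 to 0.57. The other 5, the clock factors Arntl and Clock and the coactivators Ncoa1, Ncoa2 and Ncoa3, did not pass in any of the 7 contrasts.

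**Figure D5:**
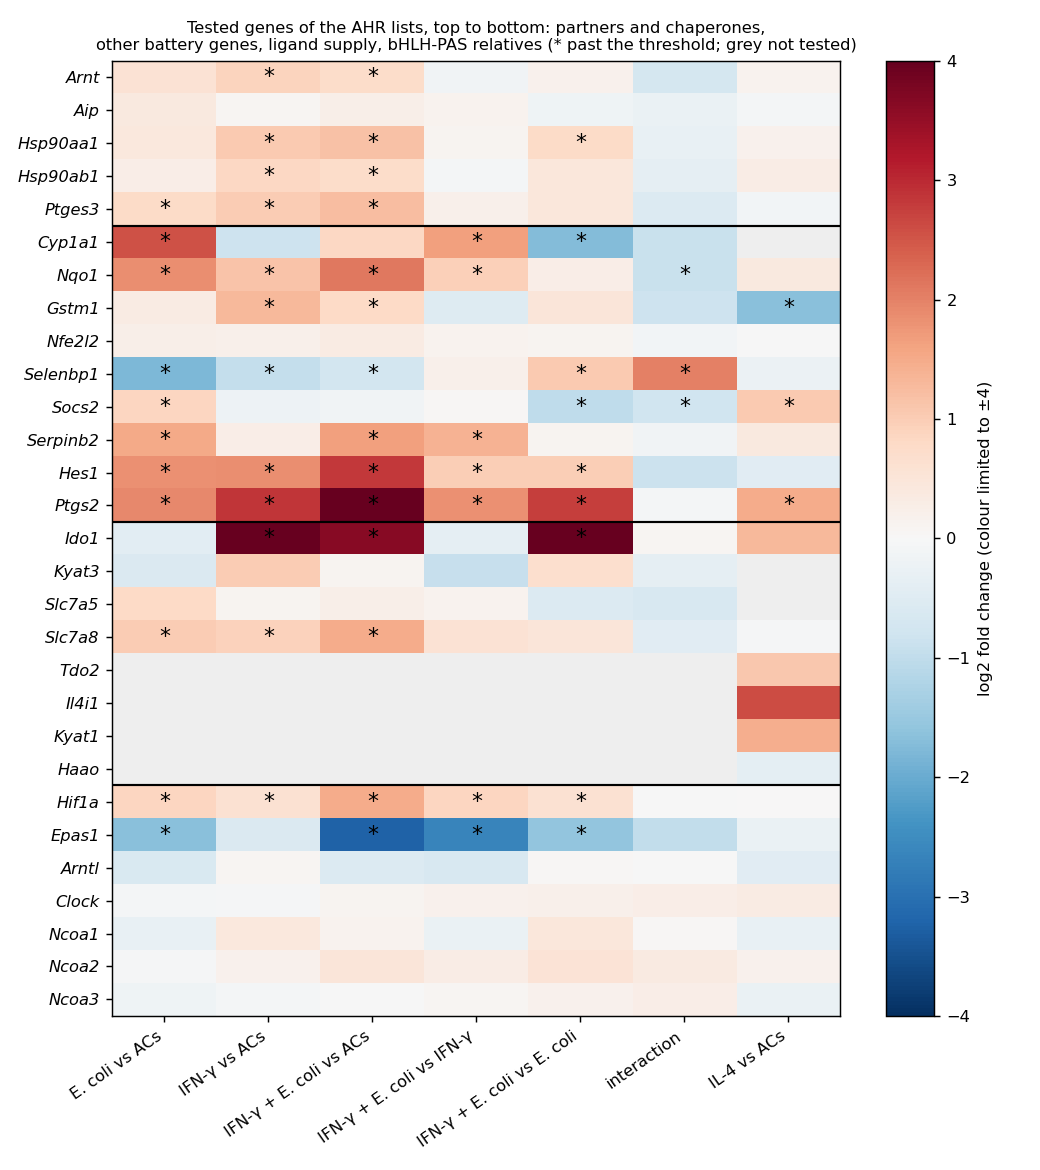
Log2 fold changes (colour, limited to ±4) of the tested genes of the 4 lists (rows) in 7 contrasts (columns), with stars for changes past the threshold and grey for genes not tested. The battery gene Ptgs2 is starred in 6 columns, Cyp1a1 is starred with E. coli (2.56) and not with IFN-γ (-0.83), and Ido1 is starred with IFN-γ (3.99) and not with E. coli (-0.43).

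Across the 18 libraries, after the mean of the ACs libraries of the same experiment was taken off each log2 value, Cyp1b1 correlated with Tiparp (Pearson r = 0.73), Cyp1a1 (0.71) and Ahr (0.67). Ahr correlated with Tiparp (0.65) and hardly with Ahrr (0.10, or 0.29 by Spearman rank). Ahrr and Cyp1a1 stood at 0.45, or 0.68 by rank. These are descriptions over libraries that share treatments and controls. Among 6905 genes with a mean of at least 50, the closest to Cyp1b1 were Alas1, the first enzyme of heme synthesis (r = 0.96), the chemokine Cxcl5 (0.94) and the methyl-DNA binding protein Mbd2 (0.92). Those closest to Ahr were the chaperone Hsph1 (0.89), the receptor Cd300lf (0.87) and the cholesterol hydroxylase Ch25h (0.86). Tiparp was close to Anp32b (0.95) and Npepps (0.95), and Ahrr to Gtf3c2 (0.92), Rfx7 (0.84) and Gle1 (0.80). By Spearman rank, these values for Ahrr were lower, at 0.71, 0.64 and 0.67.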

How the data were processed

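RNA from 18 libraries was examined, 3 for each of 6 groups. The values the authors deposited are a signal, the read count of a gene divided by its library's DESeq2 size factor. They were whole multiples of 1 step in each library (100.0% of values, tolerance 0.006), so reads were recovered. Per the labels, processing named Trim Galore, cutadapt 1.10, FastQC 0.11.5, Bowtie2 2.2.6, TopHat2 2.1.0, HTSeq 0.6.1 and DESeq2 1.26.0. The study's methods also describe a second pipeline, and which one made this table is not given in the sources used here. HTSeq's strand setting is likewise not given. Of 54446 identifiers, 54409 matched a symbol.

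Changes were tested with limma 3.58.1 in R 4.3.3 (lmFit, eBayes with trend) on log2(normalized count + 1), which understates the change of low genes. Genes needed a mean of at least 10 over the libraries of the fit, leaving 10166 in the 12 Type 1 libraries and 10669 in the 6 of the IL-4 experiment. The 4 members all passed this filter, Cyp1b1 largely through the groups where it was high. Calls needed a Benjamini-Hochberg adjusted p under 0.05 and at least 1.5-fold. The limma, edgeR and DESeq2 fits were first run on simulated data for E. coli against ACs, the interaction and IL-4 against ACs. Other contrasts and settings were not simulated. Alternatives were a pseudocount of 5, no filter, a mean of 50, a replicate block, upper quartile scaling, array weights, count tests on recovered reads with DESeq2 1.42.0 and edgeR 4.0.16, 1 fit of all 18 libraries, no fold threshold and each library left out. Python 3.11.15, numpy 2.4.6, pandas 2.3.3 and matplotlib 3.10.9 were used.

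Tests of Cyp1b1 against the Type 1 ACs libraries, which its choice used, were left out. The members and gene lists were chosen with earlier results of these data known. Genes named are the 4 members, the listed AHR pathway genes that were past the threshold or reached a group mean of 10, the 3 genes most like each member and 6 stimulus genes, of which some are given as counts and 1 is not reported here. Between replicates the chi-square of counts per degree of freedom was 3.92 to 13.2, so replicates differed by more than sampling noise. Nothing in the labels ties libraries of different groups to 1 mouse, and p-values measure the spread between these libraries. The confidence level of intervals is 95%. Floors of 3 reads cover counting error only.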

Additional observations from a re-analysis of the deposited data

Results flagged for a closer look

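For 2 of the members the effect of E. coli differed with and without IFN-γ by a test of the interaction. For Ahr the effect with IFN-γ minus that without was -1.11 on the log2 scale (limma, adjusted p = 0.00178), and for Tiparp it was -0.76 (limma, adjusted p = 0.0210). The Tiparp call was lost in 1 fit of all 18 libraries and without E. coli + ACs replicate 1 or 2, IFN-γ + ACs replicate 2 or IFN-γ + E. coli + ACs replicate 1. Of all 10166 genes tested, 4.28% passed lower and 3.16% higher. Of 9 tested genes of the AHR battery, 3 passed. The difference was -0.89 for Nqo1 (limma, adjusted p = 0.0397), 2.02 for Selenbp1 (adjusted p = 0.000828) and -0.81 for Socs2 (adjusted p = 0.0076). The Nqo1 call was lost in 1 fit of all 18 libraries (adjusted p = 0.0514) and with all genes above 0 tested (adjusted p = 0.0666), and when ACs replicate 1 or 2, any E. coli + ACs replicate, IFN-γ + ACs replicate 1 or IFN-γ + E. coli + ACs replicate 2 was left out.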

How the results depend on the processing

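Of 275 log2 fold changes of the members recomputed under settings other than leaving out 1 library, 256 kept their direction and their side of the threshold (for Cyp1b1 values with no test, they moved by less than 1 SD). Of 806 changes of listed genes past the threshold, 26 missed it under such a setting and 0 reversed. Both counts include settings that cannot alter a log2 fold change. These are the changes of filter, the replicate block, 1 fit of all 18 libraries and no fold threshold. Direction could not reverse in them, and with no fold threshold no call could be lost. The 2 counts therefore overstate how far the changes were put to a test. With 1 library left out, 175 of 191 changes of members kept both, and 44 of 516 changes of listed genes missed the threshold. A pseudocount of 5 gave Cyp1b1 4.28 with E. coli, 0.69 with IFN-γ, 3.16 with both and -1.80 for the interaction, and Ahrr -0.023 with IL-4, which is a reversal of a change near 0. Upper quartile scaling gave Ahr 0.53 with IFN-γ and 0.40 with both stimuli, no longer past, and Ahrr -1.60 with IFN-γ, now past. It also moved the split of all genes called to 688 higher and 1925 lower with IFN-γ (1160 and 1013 before), to 840 and 2848 with both (1494 and 1746 before), to 536 and 1887 for both against E. coli (995 and 973 before) and to 22 and 5 with IL-4 (79 and 37 before). Tiparp with both against E. coli passed at 0.40 with no fold threshold, and its interaction of -0.76 did not pass in 1 fit of all 18 libraries, where 495 genes passed for the interaction.

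The IL-4 comparison called 116 genes in the fit reported and depended most on the setting. It called 208 with all genes above 0, 74 with the replicate block, 27 with upper quartile scaling, 745 with array weights, 212 with edgeR, 209 with DESeq2, 221 in 1 fit of all 18 libraries and 656 without both replicate 3 libraries. Ahr passed there at 0.91 with all genes above 0, 0.91 with array weights, 1.00 with edgeR, 0.97 with DESeq2, 0.91 in 1 fit of all 18 libraries and 1.09 without both replicate 3 libraries. Cyp1b1 passed at 2.01 with array weights, 2.20 with edgeR and 2.36 without both replicate 3 libraries.

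With 1 library left out at a time, Cyp1b1 ranged from 4.94 to 6.32 with E. coli, from 0.71 to 2.08 with IFN-γ, from 3.78 to 5.15 with both and from -3.25 to -1.88 for the interaction. Ahrr ranged from -2.10 to -0.52 with IFN-γ, from 0.99 to 2.57 for both against IFN-γ, from -0.39 to 0.068 for both against E. coli and from -0.48 to 0.18 with IL-4. The Tiparp interaction ranged from -0.90 to -0.67. The genes called ranged from 47 to 130 with IL-4 and from 400 to 1026 for the interaction. Ahrr changed sign in the last 2 of its contrasts. Ahrr with IFN-γ passed without IFN-γ + ACs replicate 1 (-2.10, limma, adjusted p = 0.00163).

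Replicates with the same number in different groups showed little shared deviation (mean correlation 0.0054 over 18 pairs of the Type 1 experiment and 0.0095 over 3 of the IL-4 experiment, none over 0.1). Deviations within groups of 3 also carry counting noise, so these values cannot exclude that libraries were paired. The replicate block changed no call of a member.

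The 2 shallow libraries limit what the IL-4 comparison can show for Ahrr, Cyp1b1 and Cyp1a1. The groups of 3 give wide intervals for Ahrr. The cause of the differences between settings was not tested.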
